A study of Mus musculus with 10 samples.

Results

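The receptors for interleukin-5 (IL-5), interleukin-3 (IL-3) and granulocyte-macrophage colony-stimulating factor (GM-CSF), with the JAK2-STAT5 route they share, were examined in lung eosinophils. The 10 genes were chosen by name for their place in this pathway, and each was found as a single row among the 35725 gene rows of the deposited count table. They are the alpha chains Il5ra, Il3ra and Csf2ra, the beta chains Csf2rb and Csf2rb2, the kinase Jak2, the transcription factors Stat5a and Stat5b, and the target genes Cish and Pim1. All 10 passed the filter on low counts, which kept 15586 genes.

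The study compared eosinophils of P2ry14-null male mice (5 libraries) with those of wild-type C57BL/6J male mice (WT, 5 libraries). P2ry14 encodes a receptor for UDP-glucose. All mice of both groups had the same asthma model. Ovalbumin (50 µg) and Aspergillus oryzae protease (20 µg) were instilled through the oropharynx on 2 occasions, an aerosol of 1% ovalbumin followed after 7 days, and the cells were sorted by flow cytometry 16 h later. Untreated mice are not among the samples, so the values describe eosinophils after allergen challenge only. Neither the ages of the mice nor the way the null allele was made are given in the sources used here. Nothing in the labels ties each library to a mouse of its own, so the p-values measure the spread between these libraries, which may be technical.

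Each of these receptors pairs a cytokine-specific alpha chain with a signalling beta chain. In the mouse, Csf2rb is the beta chain common to all 3 receptors, while Csf2rb2 is a second beta chain that serves IL-3. The beta chain carries JAK2, and cytokine binding lets JAK2 phosphorylate STAT5A and STAT5B, which move to the nucleus and switch on target genes. IL-5 drives the production, release and survival of eosinophils, and GM-CSF and IL-3 prolong their life in inflamed tissue. CISH is a feedback inhibitor of STAT5 signalling, and PIM1 is a serine/threonine kinase that promotes survival.

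The sequences below show the STAT-type motif of the target gene Cish and of the receptor gene Csf2rb2, the 2 members whose promoter held it. Each runs 5′ to 3′ on the gene's strand, from 80 bases before the start of the gene to 30 after it, and capitals mark TTCNNNGAA, a motif that reads alike on both strands (RefSeq sequence, GRCm38.p6).
Cish, chr9:107296579-107296688, plus strand: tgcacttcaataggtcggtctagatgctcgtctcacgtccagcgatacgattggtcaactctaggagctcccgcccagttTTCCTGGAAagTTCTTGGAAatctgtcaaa
Csf2rb2, chr15:78305692-78305801, minus strand: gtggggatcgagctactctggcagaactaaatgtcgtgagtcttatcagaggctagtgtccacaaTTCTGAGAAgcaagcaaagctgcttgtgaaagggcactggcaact
Promoter sequences of 250 bases before and 50 after the start were at hand for 9 of the 10 genes (12 promoters, since some genes have 2 starts), all but Csf2rb. Cish held 2 motifs, at positions 1 and 12 counted from the gene start, and Csf2rb2 held 1, at position -15. The motif was in 8.3% of 32851 promoters of the same length, and 2 or more were in 0.46%. A match describes these letters only.

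Close copies matter for reading the counts, so the first 60 coding bases of each pair are shown, with the bases that differ within a pair in capitals (GENCODE vM21 transcripts, GRCm38).
Csf2rb: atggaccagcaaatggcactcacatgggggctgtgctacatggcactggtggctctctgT
Csf2rb2: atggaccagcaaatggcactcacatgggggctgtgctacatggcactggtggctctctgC
Stat5a: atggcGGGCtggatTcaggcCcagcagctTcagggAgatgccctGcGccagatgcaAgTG
Stat5b: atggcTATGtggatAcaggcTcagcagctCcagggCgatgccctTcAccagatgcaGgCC
In this stretch the beta chain genes differ at 1 base and the STAT5 genes at 13. Over their aligned coding sequences, Csf2rb and Csf2rb2 were 95.2% identical (2503 of 2628 bases) with a longest identical run of 242 bases, and Stat5a and Stat5b were 90.9% identical (2083 of 2291 bases) with a run of 324. Of all 50-base windows of the coding sequence, 26.0% of those in Csf2rb occur in Csf2rb2 and 26.0% of those in Stat5a occur in Stat5b. How reads that match several places were counted is not given in the sources used here, so the split of counts within each pair is uncertain.

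The genes of each pair are also neighbours. The deposited spans of Stat5b (11: 100780731 to 100859004, minus strand) and Stat5a (11: 100859351 to 100885169, plus strand) lie 346 bp apart on opposite strands. Those of Csf2rb2 (15: 78282507 to 78305721, minus strand) and Csf2rb (15: 78325798 to 78351001, plus strand) lie 20.1 kb apart, likewise on opposite strands. The Stat5b promoters searched above lay inside its span, at 100850532 to 100850831 and 100822521 to 100822820, so these gaps are not distances between promoters. The other members, in mm10 coordinates as deposited, are Il5ra (6: 106710375 to 106749037, minus strand), Il3ra (14: 14346001 to 14355493, plus strand), Csf2ra (19: 61217191 to 61228463, minus strand), Jak2 (19: 29251708 to 29313080, plus strand), Cish (9: 107296659 to 107302784, plus strand) and Pim1 (17: 29491045 to 29495465, plus strand). P2ry14 lies on another chromosome than any of them, chromosome 3. In the annotation, exons of Stat5a share 72 bases with Stat3 on the opposite strand and those of Pim1 share 488 with the antisense gene Gm26885, which held 0 to 4 reads per library. Exons of Il3ra (46 bases) and Cish (261 and 479 bases) also overlap antisense genes that have no row of that name in the table. Whether the counting used strand is not given, so reads of these antisense overlaps cannot be told apart. On the same strand, exons of Csf2rb share 62 bases with Mir7676-2 and those of Csf2rb2 share 62 with Mir7676-1. Strand would not separate those reads.

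Total counts ran from 67.2 to 185 M reads per library (M, 1e+06), so that even Il3ra, the lowest member, rested on 1182 to 2914 reads per library. The targeted gene P2ry14 followed the labels, with 190 to 229 counts per 1e+06 reads (CPM) in WT and 21.8 to 24.2 in P2ry14-null libraries. The 8 eosinophil markers, which include the member Il5ra, summed to 8635 to 9125 CPM in WT and 8634 to 9267 in P2ry14-null libraries. P2ry14-null library 2 stood apart in markers of other cells, with 2202 CPM over 10 alveolar macrophage genes (743 to 875 in the remaining libraries of that genotype) and 433 CPM over 9 dendritic cell and class II genes (76.2 to 123 in those libraries). The same library held 72.7 CPM over 7 epithelial genes (at most 18.3 in those libraries). It held 56.5 CPM of B and plasma cell genes (at most 25.8) and 5.33 CPM of T and NK cell genes (at most 3.10). The 8 neutrophil genes summed to 3696 to 4636 CPM in WT and 3692 to 5387 in P2ry14-null libraries, with library 2 the lowest of its genotype. The 9 mast cell and basophil genes summed to 99.7 to 115 CPM in WT and 69.3 to 90.6 in P2ry14-null libraries, without overlap. Taken singly, 0.648% of all tested genes separated the genotypes in this way. In the tests described below, 8 genes of this list were tested, and all 8 were lower in P2ry14-null libraries. An unadjusted edgeR p under 0.05 was found for 3 of them, where 4.13% of all tested genes had one. After adjustment edgeR called 0 of them and DESeq2 called 1, where DESeq2 called 0.118% of genes. No gene counted in these lists had 0 reads in all libraries, and the part of these cells in the values below was not tested.

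Across genotypes, none of the 10 genes differed past the threshold (edgeR quasi-likelihood test, Benjamini-Hochberg adjusted over 15586 genes, adjusted p under 0.05). The background was 6 genes called, or 0.0385% of those tested. No member had an unadjusted p under 0.05 either, where 4.13% of all genes had, and DESeq2 called 0 members, with 0 at an unadjusted p under 0.05, where it called 0.118% of genes. Log2 fold changes (P2ry14-null minus WT) lay between -0.12 and 0.05, with 7 of 10 below 0 and a median of -0.05. Over all tested genes the median was 0.003, and 48.8% were below 0. For no member did the libraries of both genotypes separate completely, which 0.648% of all tested genes did. The 95% intervals of the members together spanned a ratio of 0.823 to 1.153, the lower bound from Cish and the upper from Il5ra. With single libraries left out, log2 fold changes ran from 0.006 to 0.10 for Il5ra, from -0.08 to -0.02 for Csf2ra, from -0.05 to -0.003 for Il3ra and from -0.06 to -0.01 for Jak2. In bulk RNA, fewer cells of a type and less RNA per cell cannot be told apart.

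**Figure D1:**
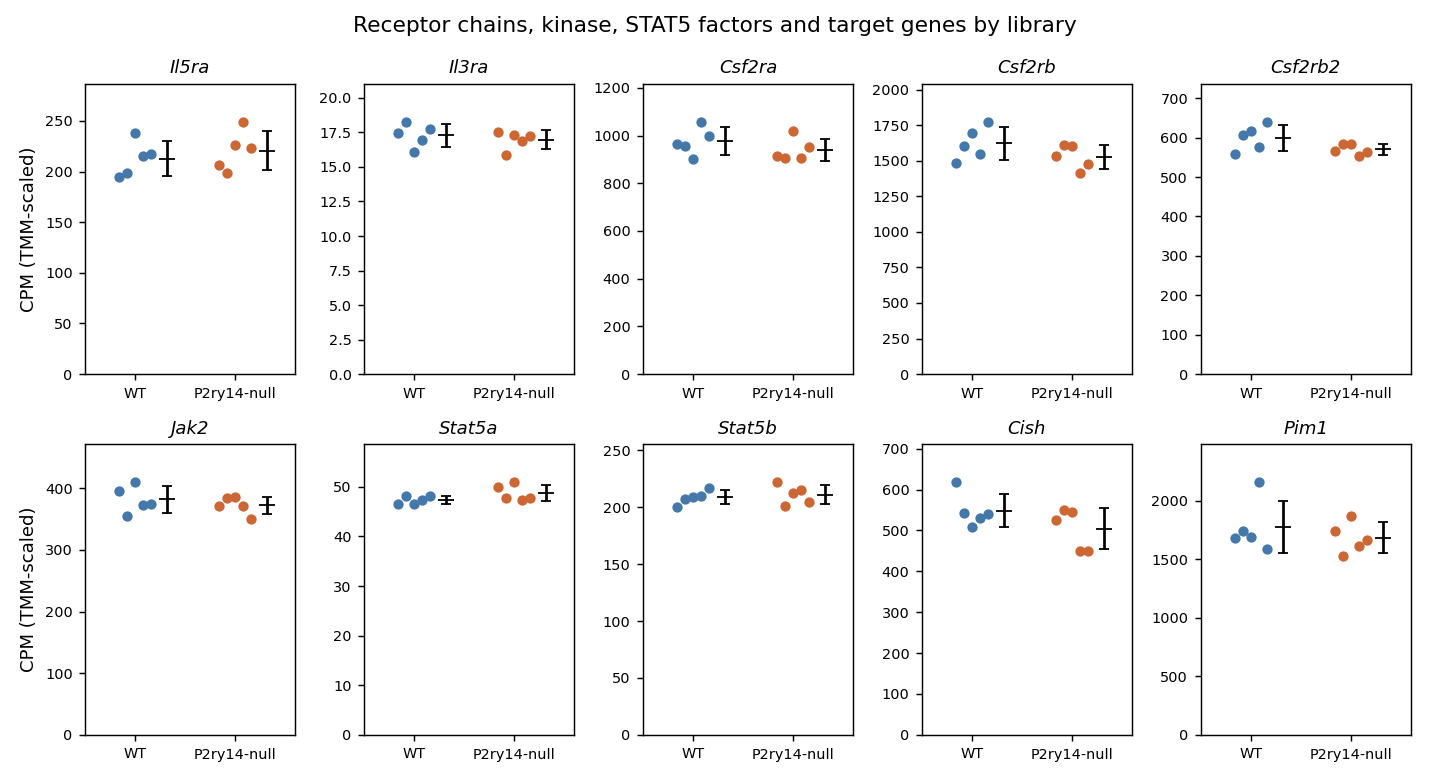
CPM of each of the 10 genes in every library (points; y axes start at 0), with the group mean and SD (n = 5) in black to the right of each group. WT and P2ry14-null libraries overlap for all 10 genes, and WT library 4 stands high for Pim1.

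Il5ra, the IL-5-binding chain carried by eosinophils, had 194, 199, 238, 215 and 217 CPM in WT libraries 1 to 5. In P2ry14-null libraries 1 to 5 it had 206, 199, 226, 249 and 223 CPM. The highest library was P2ry14-null 4 and the lowest WT 1, and the groups overlapped over most of their range. Means were 213 ± 17.3 and 221 ± 19.6 CPM (SD, n = 5 each), a log2 fold change of 0.05 ± 0.07 (SE; 95% interval -0.10 to 0.21; edgeR adjusted p = 0.999).

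Csf2ra, the GM-CSF-binding chain, was the most abundant of the alpha chains, with 964, 955, 901, 1059 and 999 CPM in WT libraries 1 to 5. P2ry14-null libraries 1 to 5 held 915, 907, 1017, 905 and 952 CPM. Both groups therefore covered nearly the same span, with means of 976 ± 58.3 and 939 ± 47.4 CPM. The log2 fold change was -0.05 ± 0.05 (95% interval -0.17 to 0.06). Without P2ry14-null library 2, where the alveolar macrophage markers were high, the value was -0.04.

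Il3ra, the IL-3-binding chain, was scarce beside the others. It had 17.5, 18.3, 16.1, 17.0 and 17.7 CPM in WT libraries 1 to 5, and 17.5, 15.9, 17.3, 16.9 and 17.3 CPM in P2ry14-null libraries 1 to 5. The lowest library was P2ry14-null 2, followed by WT 3. Means were 17.3 ± 0.84 and 17.0 ± 0.67 CPM, and the log2 fold change was -0.03 ± 0.05 (95% interval -0.14 to 0.08). The groups overlapped.

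Csf2rb, the common beta chain, had 1483, 1604, 1696, 1549 and 1775 CPM in WT libraries 1 to 5. In P2ry14-null libraries 1 to 5 it had 1532, 1611, 1606, 1413 and 1479 CPM. The 2 highest libraries were WT 5 and WT 3, yet WT 1 lay below 3 of the P2ry14-null libraries. Means were 1621 ± 116 and 1528 ± 84.6 CPM, with a log2 fold change of -0.09 ± 0.06 (95% interval -0.22 to 0.05).

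Csf2rb2, the IL-3 beta chain, had 558, 608, 617, 577 and 641 CPM in WT and 565, 585, 584, 553 and 563 CPM in P2ry14-null libraries, in the order 1 to 5. All 5 P2ry14-null libraries lay below the WT median, while WT 1 was lower than 4 of them. Means were 599.9 ± 32.8 and 570.2 ± 13.95 CPM, and the log2 fold change was -0.07 ± 0.05 (95% interval -0.18 to 0.03). With the counts of both beta chains summed to 1 gene, which removes the uncertain split, the value was -0.08 ± 0.06. Any reads left uncounted because they match both copies would be missing from this sum as well.

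Jak2, the kinase bound to the beta chain, had 396, 355, 409.6, 373 and 375 CPM in WT libraries 1 to 5 and 371, 383, 385, 371 and 349.6 CPM in P2ry14-null libraries 1 to 5. The highest and second highest libraries were WT 3 and WT 1, and the lowest was P2ry14-null 5. The log2 fold change was -0.04 ± 0.05 (95% interval -0.15 to 0.07).

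The STAT5 genes were the steadiest of the set. Stat5a had 46.5, 48.2, 46.6, 47.4 and 48.2 CPM in WT libraries 1 to 5, and 49.9, 47.7, 50.9, 47.3 and 47.7 CPM in P2ry14-null libraries 1 to 5. P2ry14-null 3 and 1 were above every WT library, and the other 3 lay within the WT range. Stat5b had 201, 207, 209, 210.1 and 217 CPM in WT and 222, 201, 212, 215 and 204 CPM in P2ry14-null libraries, again overlapping. Log2 fold changes were 0.04 ± 0.04 for Stat5a (95% interval -0.04 to 0.12) and 0.01 ± 0.04 for Stat5b (95% interval -0.08 to 0.11). With both genes summed, the value was 0.02 ± 0.04.

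Cish, the feedback inhibitor whose promoter window is printed above, had 618, 544, 508, 531 and 541 CPM in WT libraries 1 to 5. P2ry14-null libraries 1 to 5 held 524, 551, 544, 450.3 and 449 CPM. WT 1 was the highest of all libraries, and P2ry14-null 4 and 5 were the lowest, below every WT library, while the other 3 lay inside the WT range. Means were 548 ± 41.2 and 504 ± 50.4 CPM. The log2 fold change was -0.12 ± 0.07 (95% interval -0.28 to 0.04; edgeR adjusted p = 0.999), the farthest from 0 of the 10 genes, and without WT library 1 it was -0.08.

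Pim1, the survival kinase, had 1684, 1746, 1693, 2159 and 1587 CPM in WT libraries 1 to 5, and 1742, 1524, 1871, 1613 and 1669 CPM in P2ry14-null libraries 1 to 5. WT 4 stood above all others and the remaining WT libraries fell within the P2ry14-null range. Means were 1774 ± 223 and 1684 ± 131 CPM. The log2 fold change was -0.08 ± 0.08 (95% interval -0.25 to 0.10) and turned to 0.01 without WT library 4.

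**Figure D2:**
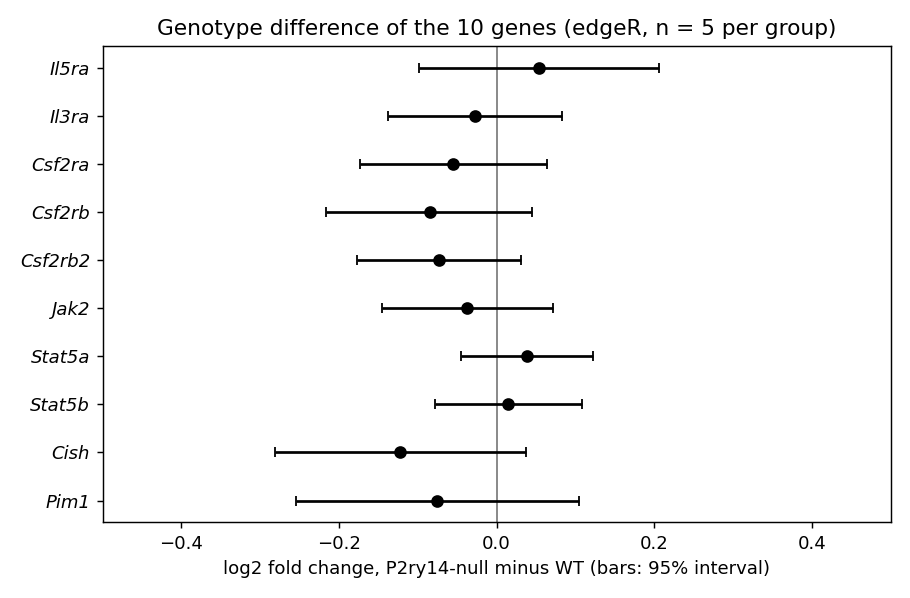
Log2 fold change of each gene, P2ry14-null minus WT (x axis), with its 95% interval from the edgeR fit (bars; n = 5 per group). All 10 intervals cross 0, from -0.28 at the low end of Cish to 0.21 at the high end of Il5ra.

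Compared per length (CPM per kb of the transcript with the longest coding sequence), the levels ran over nearly 2 orders of magnitude. Pim1 stood highest with a mean over all 10 libraries of 641 CPM per kb, followed by Csf2ra at 518, Csf2rb at 321, Cish at 185 and Csf2rb2 at 123. Below them came Jak2 at 74.9, Il5ra at 60.6, Stat5b at 40.3, Stat5a at 13.3 and Il3ra at 7.41 CPM per kb. Among the 14084 tested genes with a length (90.4%), Pim1 was at rank 74, Csf2ra 91, Il5ra 1182 and Il3ra 6058. Each gene was above the next of this order in 10 of 10 libraries. The ranges over libraries overlapped for Pim1 and Csf2ra and for Jak2 and Il5ra, and for no other neighbours in the order. Where Cish stands depends on the length used: with all annotated exons joined, its level was 81.9 CPM per kb, below Csf2rb2 (123) in 10 of 10 libraries.

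**Figure D3:**
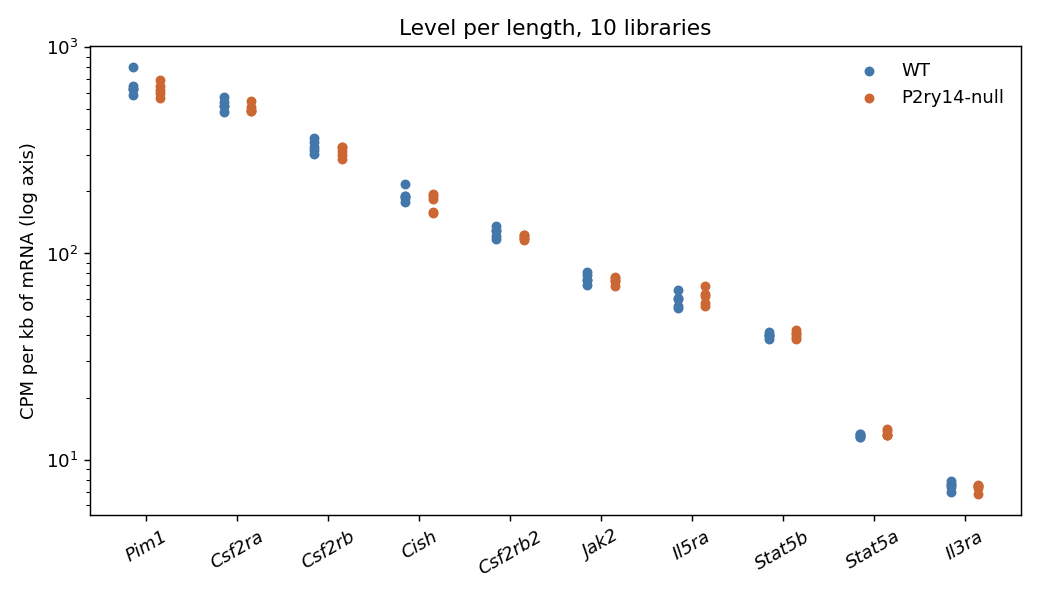
CPM per kb of mRNA (log axis) for each gene, ordered by its mean over 10 libraries, with WT points left and P2ry14-null points right. The target gene Pim1 is highest at 641 CPM per kb. Of the receptor chains, Csf2ra comes next at 518 and Il3ra is last of all genes shown at 7.41 CPM per kb.

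The make-up of the receptor set was compared as 3 shares, whose means differed between genotypes by less than the SD within either group. Il5ra made up 10.03% ± 1.06 of the level per length of the 3 alpha chains in WT and 10.7% ± 0.93 in P2ry14-null libraries (SD, n = 5 each; exact permutation test, two-sided, p = 0.349, adjusted over 3 shares p = 0.56). The Csf2rb2 share of beta chain counts was 27.0% ± 0.41 and 27.2% ± 0.65 (exact permutation p = 0.635, adjusted 0.635), and the Stat5b share of the STAT5 level per length was 75.3% ± 0.42 and 75.0% ± 0.67 (exact permutation p = 0.373, adjusted 0.56). The smallest p this design allows is 0.0079. For the Il5ra share, 1 library of each genotype stood apart. WT 3 had a share of 11.9% against 9.32% to 9.97% in the other WT libraries, and without it the difference was 1.13 percentage points (exact permutation p = 0.0238, adjusted 0.0714). P2ry14-null 4 had a share of 12.3% against 10.1% to 10.7% in the remaining libraries of its genotype, and without it the difference was 0.27 percentage points (exact permutation p = 0.706, adjusted 0.818).

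From library to library the genes differed in how much they varied. The SD of log2 CPM within groups was 0.038 for Stat5a, 0.049 for Stat5b, 0.061 for Csf2rb2, 0.063 for Il3ra and 0.069 for Jak2. It was 0.079 for Csf2ra, 0.092 for Csf2rb, 0.121 for Il5ra, 0.127 for Cish and 0.144 for Pim1. The median of the 7630 genes with a mean of at least 10 CPM was 0.094, and 1.3% of them had an SD as small as that of Stat5a, while 83.4% were at or below that of Pim1. Both target genes and Il5ra thus lay above the median, and the other 7 genes below it.

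The counts of the beta chain genes moved together. With group means removed, log2 CPM of Csf2rb and Csf2rb2 correlated over the 10 libraries with Pearson's r = 0.947 (exact permutation within groups, p = 1.39e-04, adjusted over 45 pairs p = 0.00625) and Spearman's rho = 0.939 (permutation p = 2.08e-04). Without WT 5 and WT 1, the 2 libraries farthest from the median of Csf2rb, r was 0.913. Within the single groups of 5 libraries no correlation was computed, since they are too small. Without P2ry14-null library 4, r was 0.966 but its adjusted p was 0.078, while leaving out any other single library gave an adjusted p between 0.0156 and 0.0469. The share of reads that both copies could hold in common was not tested. How often pairs of genes outside the members reach such an r was not tested either. None of the other 44 pairs of members passed. Stat5a and Stat5b, the other neighbouring pair, had r = 0.54 (permutation p = 0.171, adjusted p = 0.854) and Spearman's rho = 0.552 (permutation p = 0.186), and r = 0.467 without P2ry14-null libraries 3 and 1.

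**Figure D4:**
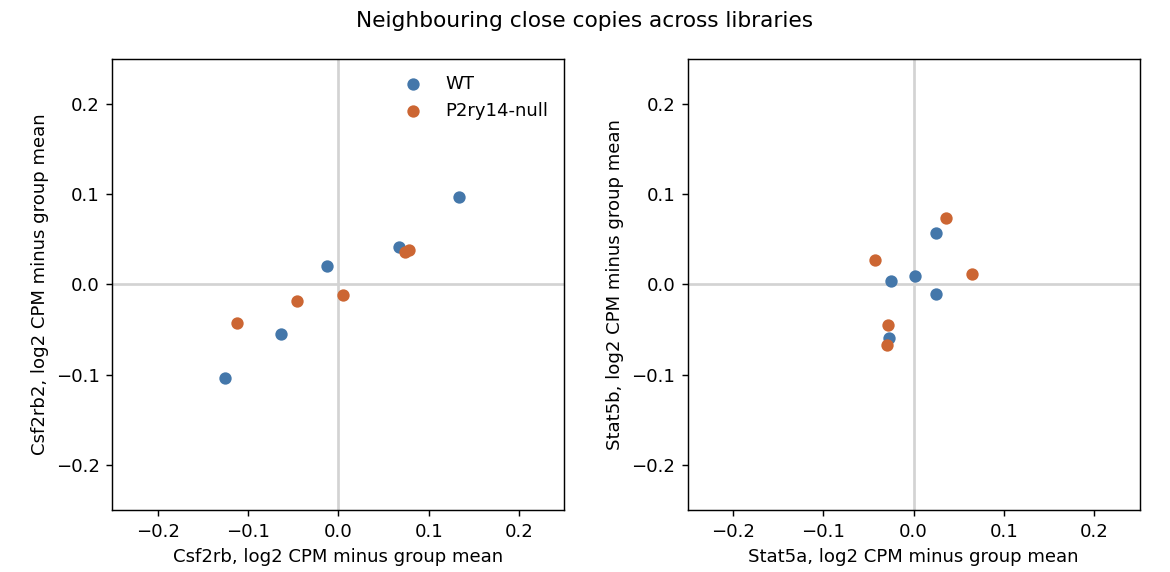
Log2 CPM minus the group mean in each library for Csf2rb against Csf2rb2 (left) and Stat5a against Stat5b (right), points coloured by genotype. The beta chain points follow a line (r = 0.947), and the STAT5 points scatter more widely (r = 0.54).

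Of all genes other than the members with a mean of at least 5 CPM (8814 searched), the 3 whose group-centred log2 CPM was most like that of Il5ra over the 10 libraries were Setd7 (Pearson's r = 0.968), Nfxl1 (0.965) and Fam13b (0.955). For Cish they were Alas1 (0.964), the first enzyme of haem synthesis, Tgm1 (0.956), a transglutaminase, and Rpl36al (0.949), a ribosomal protein. These values are the highest of many and are given as a description.

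Reads of the cytokines themselves were few in the sorted cells. Il3 had 0 reads in all 10 libraries, which allows up to 0.0165 to 0.0445 CPM in the single libraries (3 reads, counting error only). Csf2, which encodes GM-CSF, had 0.442, 0.678, 0.408, 0.812 and 0.561 CPM in WT libraries 1 to 5 and 0.341, 0.435, 0.360, 0.412 and 0.263 CPM in P2ry14-null libraries 1 to 5. The P2ry14-null libraries were at the low end, but 2 of them lay above WT 3, so the groups overlapped. The log2 fold change was -0.68 ± 0.21 (unadjusted p = 0.00774, edgeR adjusted p = 0.999; over the alternatives the adjusted p ran from 0.441 to 1.0), on 23 to 127 reads per library.

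Other genes of the pathway, 84 in 6 lists, gave no call. Of 79 tested, 0 passed over all genes in edgeR and 0 in DESeq2. An unadjusted p under 0.05 in edgeR was found for 2 of them (Csf2 and Il2rg), where 4.13% of all tested genes had one. Of these 79, 49 had a log2 fold change below 0, where 48.8% of all tested genes had. Their median was -0.02, against 0.003 over all tested genes. Among 24 receptor-proximal kinases and adaptors the values ran from -0.11 to 0.07 (median -0.02). Those with the smallest p were Ywhaz, a 14-3-3 protein, at -0.11 ± 0.06 and the adaptor Shc1 at 0.07 ± 0.04. Among 18 negative regulators (median 0.001) they were the adaptor Sh2b2 at 0.34 ± 0.21, a gene of 0.79 CPM in WT that was at 0.11 without P2ry14-null library 2, and the phosphatase Ptpn2 at -0.10 ± 0.06. Without WT library 1, Ywhaz was at -0.07 and Ptpn2 at -0.05, and Ptpn2 was at -0.06 without WT library 4.

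The 20 further STAT5 target genes had a median of -0.05, with 12 below 0, and values from -0.19 to 0.26. For Mcl1, a survival protein of the BCL2 family, WT libraries averaged 2909 ± 320.0 CPM and P2ry14-null libraries 2611 ± 151 CPM (SD, n = 5 each), a log2 fold change of -0.16 ± 0.07, and the cell cycle inhibitor Cdkn1a was at -0.16 ± 0.08. Mcl1 was at -0.09 without WT library 1, and Cdkn1a at -0.11 without WT library 4. Of the 8 other JAK and STAT genes, 2 of them also among the proximal kinases, 6 had a value below 0 (median -0.04), and Stat4 was at -0.09 ± 0.07. Of 13 other receptors that use JAK2 or STAT5, 10 passed the filter on low counts and were tested. Il2rg, the chain shared by the IL-2 receptor family, had 40.1 ± 3.51 and 34.6 ± 1.01 CPM (log2 -0.21 ± 0.06; unadjusted p = 0.00314, edgeR adjusted p = 0.999, and 0.397 to 1.0 over the alternatives), and Crlf2, the TSLP receptor chain, was at -0.07 ± 0.06. Without WT library 1, Crlf2 was at -0.04 and Stat4 at -0.05, and Stat4 was at -0.06 without P2ry14-null library 2.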

How the data were processed

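For 10 libraries the authors deposited a table of raw read counts by gene. STAR 2.5, featureCounts 1.5.0-p1 of Subread, DESeq2 and the build mm10 are named by the submitters' processing notes. No source used here gives the annotation release, the strand setting or the treatment of multi-mapping reads.

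The counts were tested with edgeR 4.0.16 in R 4.3.3 (TMM, default low-count filter, genotype as the only term, quasi-likelihood F test). P-values were adjusted by Benjamini-Hochberg over 15586 genes, with a threshold of 0.05. Only this edgeR fit was tried beforehand on simulated counts. DESeq2 1.42.0, other scalings, no filter, a replicate block, summed copies and left-out libraries were alternatives. CPM use TMM-scaled library sizes, and the SE of a log2 fold change is its size over the root of F. Lengths, overlaps and coding sequences came from GENCODE vM21 (GRCm38, the assembly of mm10). No pair of libraries within a group agreed within sampling noise (chi-square of 22.2 or more per gene). Named genes were all members, the 2 genes of each list with the smallest p, since none passed, and the 3 most like Il5ra and Cish; a gene that this rule named is not reported here. Members and lists were chosen with earlier results of these data known. For libraries sharing a replicate number, deviations from group means correlated between -0.137 and 0.126. Libraries of different numbers were not compared in this way, so these values cannot decide whether the libraries were paired.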

Additional observations from a re-analysis of the deposited data

Results flagged for a closer look

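Among 26 sets of 5 libraries (10 genes and 3 shares in each genotype), 3 held a library far from the other 4 by Dixon's test at the 95% level, which chance flags in about 1 in 20 sets. Pim1 was at 2159 CPM in WT library 4 against 1587 to 1746 in the other WT libraries. The Il5ra share of the alpha chains was 11.9% in WT library 3 against 9.32% to 9.97% in the other WT libraries, and 12.3% in P2ry14-null library 4 where the remaining 4 of that genotype had 10.1% to 10.7%. Both shares accompany the highest Il5ra level of their group (238 and 249 CPM).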

How the results depend on the processing

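None of the 10 genes was called in any of the 16 alternative fits, where the smallest adjusted p of a member was 0.604 (for Cish, among 156 values). With the replicate block, edgeR called 6 genes in all and 0 members, as without it, and the block changed no call of a named gene. The count of genes called over the whole table was 19 with DESeq2 and 3 to 5 with single libraries left out, against 6. Of 444 alternative values of the 28 genes named, 13 changed sign and 0 changed their side of the threshold. The sign changes all came with single libraries left out and small values, over ranges of -0.0045 to 0.0316 for Stat5b, -0.113 to 0.0114 for Pim1, -0.0079 to 0.0499 for Nfxl1, -0.0355 to 0.0307 for Fam13b and -0.0791 to 0.0128 for Alas1. The difference in the Csf2rb2 share ran from -0.064 to 0.313 percentage points with single libraries left out. The count of correlated member pairs was 0 to 1, and it was 0 without P2ry14-null library 4; the cause was not tested. Reads per library ran from 1182 to 2914 for Il3ra and from 3366 to 8444 for Stat5a, the steadiest member. How much counting error adds to the width of the intervals was not tested.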

Other observations

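Il5 had 4, 1, 2, 3 and 3 reads in WT libraries 1 to 5 and 0, 17, 4, 6 and 15 reads in P2ry14-null libraries 1 to 5, too few for the test, and the 2 high values came from P2ry14-null libraries 2 and 5. Il5ra and Cish stood in opposite order in many libraries once group means were removed (Pearson's r = -0.742, exact permutation p = 0.0268, adjusted over 45 pairs p = 0.603; Spearman's rho = -0.636, permutation p = 0.0848). Leaving out the 2 libraries with the most extreme Il5ra values (P2ry14-null 2 and 4) gave r = -0.589. The relation did not pass the correction.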
